A study of Rattus norvegicus with 8 samples.

Results

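The Shank and Homer scaffold genes are Shank1, Shank2, Shank3, Homer1, Homer2 and Homer3, which were taken by symbol from a count table of 28909 gene symbols. All 6 were found, and all 6 were among the 14309 genes that passed the filter on low counts (over 20 reads in 2 or more libraries) and were tested. Shank proteins lie deep in the postsynaptic density of excitatory synapses, where they bind SAPAP proteins (Dlgap genes) and, through a proline-rich motif, Homer proteins. Homer proteins bind metabotropic glutamate receptors and intracellular calcium channels with an N-terminal EVH1 domain, and the long forms join into tetramers through a C-terminal coiled coil. Homer1 also gives rise to a short form, Homer1a, that lacks the coiled coil and is known to be induced by neuronal activity. Shank mRNAs are known as dendritically localized messages.

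Total RNA came from primary hippocampal neurons of Sprague-Dawley rat embryos, grown on filter inserts whose pores let processes, but not somata, reach the lower side. The cultures received 100 μM picrotoxin (PTX), an antagonist of the GABA-A receptor, or its ethanol vehicle (control) for 48 h, from day 18 to day 20 in culture. Ribosomal RNA was depleted, and each compartment and treatment (somata control, somata PTX, processes control, processes PTX) was sequenced in 2 libraries. Nothing in the labels or methods says whether the 2 libraries came from separate cultures, so the p-values measure the spread between these libraries, which may be technical.

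Libraries held between 12290890 and 18455662 counts, of which genes outside the mitochondrial genome took between 9517542 and 11227599 in somata and between 4702054 and 5491237 in processes. Levels are given as CPM (counts scaled to a common library size) after TMM scaling, a method that sets the typical gene equal between libraries. They are therefore relative to the other genes, and were not divided by transcript length, so they are not compared between genes. Replicate libraries differed by more than counting noise, most so in processes control (chi-square of 21.1 per degree of freedom, against 9.11 or more elsewhere). The 6 neuronal marker genes were all detected, with a summed level of 1836 to 2048 CPM in somata control and 5089 to 5382 CPM in processes control; 2 of them, Map2 among these, were higher in processes and 4 lower. The cultures also held astrocyte RNA. The 5 astrocyte markers summed to 3124 to 3532 CPM in somata control and 10774 to 12393 CPM in processes control. The 4 microglial markers summed to at most 1.40 CPM in any library. In bulk RNA, fewer cells of a type and less RNA per cell cannot be told apart.

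In control cultures the reads of all 3 Shank genes and all 3 Homer genes were more abundant in processes than in somata after TMM scaling; with library size alone the direction turned for Shank2, Homer1 and Homer3. Shank1, the family member known from its dendritic mRNA, had 53.5 and 52 CPM in the 2 somata control libraries and 661 and 388 CPM in the 2 processes control libraries, from 1258 and 1327 reads against 5924 and 3301 reads. The compartments did not overlap, but the 2 process libraries lay far apart, with replicate 1 the higher. Shank3 had 42.5 and 41.1 CPM in somata and 438 and 299 CPM in processes, again with replicate 1 as the higher process library. Shank2 had 38.6 and 39.6 CPM in somata and 143 and 112 CPM in processes. The fitted log2 fold change of processes against somata was 3.31 for Shank1 (standard error 0.213), 3.14 for Shank3 (0.17) and 1.71 for Shank2 (0.125), or 9.94-fold, 8.80-fold and 3.26-fold. Shank1 and Shank3 ranked 9 and 18 from the top among the 14309 tested genes, whereas Shank2 ranked 545.

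Among the Homer genes, Homer2 showed the largest compartment difference. Its level was 15.4 and 15 CPM in the somata control libraries and 72.1 and 72.7 CPM in the processes control libraries, a log2 fold change of 2.25 (standard error 0.115) with close replicates. Homer3 had 12.1 and 17.3 CPM in somata and 28.8 and 25.7 CPM in processes, a log2 fold change of 0.89 (standard error 0.18). Homer1, the best-studied family member, had 37.8 and 33.4 CPM in somata and 51.1 and 46.5 CPM in processes, a log2 fold change of 0.45 (standard error 0.122). The process libraries were above the somata libraries for every one of the 6 genes, as they were for 35.9% of all tested genes.

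All 6 genes passed the test of processes against somata in control cultures (edgeR's quasi-likelihood test, Benjamini-Hochberg adjustment), with adjusted p-values between 5.98e-07 for Homer2 and 0.0106 for Homer1. An adjusted p under 0.05 with a higher level in processes was reached by 25.8% of all tested genes. Shank1, Shank2, Shank3 and Homer2 also exceeded a log2 fold change of 1, as did 11.6% of all genes on the process side. The median over the 6 genes was 1.98, against -0.05 over all tested genes. The call for Homer1 was lost without replicate 2 of somata control (0.36, adjusted p = 0.0884) or replicate 1 of processes control (0.39, adjusted p = 0.0648), and with upper quartile scaling (0.25, adjusted p = 0.106). Gfap, the intermediate filament of astrocytes, was also higher in processes (2.60 on the log2 scale), while 2 of the 5 astrocyte markers, Slc1a3 and Gja1, were lower there; the part of astrocytes in the values of the 6 genes was not tested.

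The direction of these differences depends on the TMM scaling. With library size alone the median over the tested genes was -1.86 in control cultures, in place of -0.05. Mitochondrial transcripts took 68.5 to 72.5% of the counts of process libraries and 22.6 to 26.7% of those of somata. Shank1 (1.48), Shank3 (1.31) and Homer2 (0.45) stayed above 0 at that scaling, while Shank2 (-0.11), Homer3 (-0.93) and Homer1 (-1.36) were below 0. Relative to the median gene, the 6 values were then 3.34 for Shank1, 3.17 for Shank3, 2.30 for Homer2, 1.74 for Shank2, 0.93 for Homer3 and 0.50 for Homer1, the same order as after TMM. A change of scaling shifts all genes nearly alike and the subtraction removes that shift, so the kept order is no check of the scaling.

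**Figure D1:**
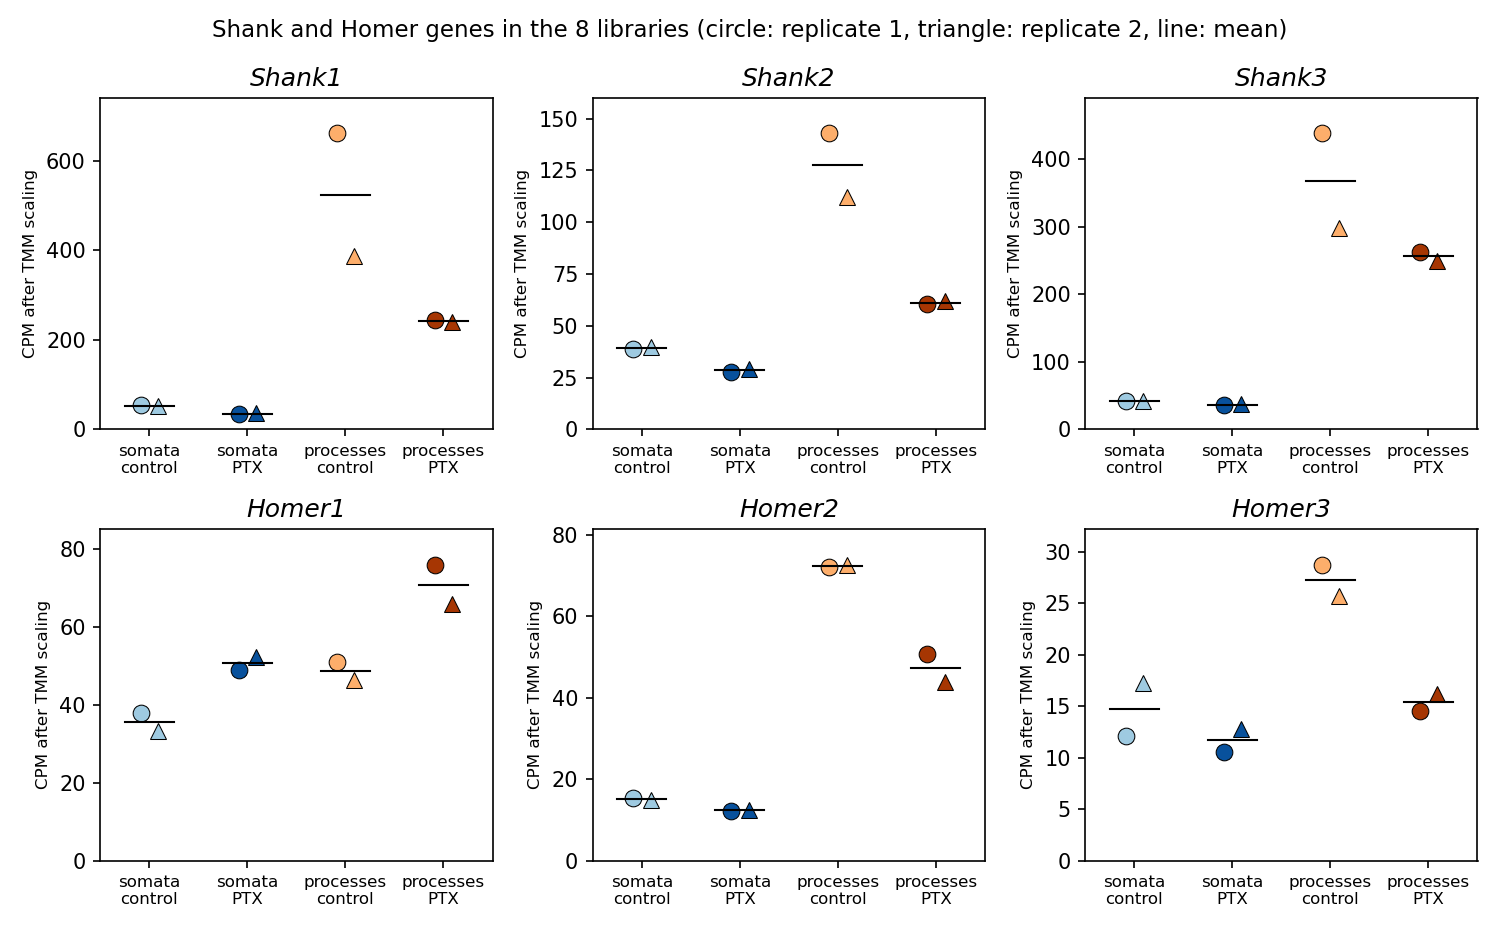
CPM after TMM scaling (vertical axes, starting at 0) of the 6 genes in the 8 libraries, by compartment and treatment on the horizontal axes. Circles are replicate 1, triangles replicate 2 and lines the means of 2 libraries. In 5 of the panels the highest libraries are those of processes control, and in the Homer1 panel they are those of processes PTX, at 76 and 65.9 CPM.

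With PTX, Shank1 and Shank2 fell in processes to 0.460 and 0.478 of their control levels, and Shank3 was at 0.695 of its own without passing the test. Shank1 had 244 and 239 CPM in the 2 processes PTX libraries, both below the processes control libraries, with means of 241 ± 3.3 and 524 ± 193 CPM (SD, n = 2). Shank2 fell from 128 ± 21.5 to 61.1 ± 1.1 CPM, with 60.3 and 61.8 CPM in the PTX libraries. Shank3 measured 262 and 249 CPM after PTX, below its control libraries but by a smaller margin. The log2 fold change was -1.12 for Shank1 (standard error 0.197, adjusted p = 0.0135, quasi-likelihood test), -1.06 for Shank2 (0.126, adjusted p = 0.00308) and -0.53 for Shank3 (0.157, adjusted p = 0.105). Shank3 thus did not pass, and passed once the model held a replicate block, a term for the replicate number (-0.51, adjusted p = 0.00273), which called 6.09% of all genes lower.

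The Homer genes moved in opposite directions in processes. Homer1 rose 1.45-fold to 76 and 65.9 CPM, which was 0.54 on the log2 scale (standard error 0.123, adjusted p = 0.0382). Homer2 fell to 50.9 and 43.9 CPM and Homer3 to 14.6 and 16.2 CPM, with log2 fold changes of -0.61 (standard error 0.111, adjusted p = 0.0153) and -0.82 (standard error 0.191, adjusted p = 0.0404). For all 3 Homer genes the PTX and control libraries did not overlap; Homer1 shared this with 20.1% of all genes on the higher side. The gene Ddx49, at -0.47 in processes (adjusted p = 0.112, quasi-likelihood test), overlaps Homer3 in the genome. Reads of Homer3 are therefore of uncertain origin in part.

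In all, 4 of the genes fell in processes, 1 rose and 1 did not pass. Over all tested genes, 2.1% were called lower and 1.64% higher with PTX in processes, and the median log2 fold change was -0.72 over the 6 genes and -0.01 over all. The groups did not overlap, with PTX lower, for 5 of the 6 genes and for 22.3% of all genes. Shank2 was the only one of the 6 that kept its call without each of the 8 libraries in turn. Shank1 lost it without either processes PTX library (adjusted p = 0.0854 and 0.0922), and without replicate 1 of processes control, the library where Shank1 was highest, its log2 fold change was -0.68 in place of -1.12. Without that library Shank3 changed by -0.22, and the calls of Homer1, Homer2 and Homer3 were lost. Homer1 lost its call when any 1 of the 8 libraries was left out (adjusted p between 0.0509 and 0.196), Homer2 also without replicate 2 of processes PTX and Homer3 also without each of the other 3 process libraries, while no log2 fold change of the 6 genes changed sign.

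In somata, Homer1 rose with PTX from 37.8 and 33.4 CPM to 48.9 and 52.4 CPM, which was 0.51 on the log2 scale (standard error 0.117, adjusted p = 0.0395), and was the only one of the 6 genes to pass. Over all genes, 2.09% were called higher and 1.5% lower with PTX in somata. Shank1 measured 33.7 and 35.5 CPM after PTX (log2 fold change -0.61, adjusted p = 0.151) and Shank2 27.8 and 29.3 CPM (-0.46, adjusted p = 0.0772), in both cases below the 2 control libraries. With the replicate block, which called 6.79% of all genes lower here, Shank1 and Shank2 passed (adjusted p = 0.00406 and 0.00327). Shank3 had 36.1 and 37.2 CPM, and its log2 fold change of -0.19 had a 95% interval from -0.55 to 0.16. Homer2, with 12.3 and 12.4 CPM (-0.30, adjusted p = 0.222), was below its control libraries, whereas Homer3, with 10.6 and 12.8 CPM (-0.34, adjusted p = 0.416), overlapped them.

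The median over the 6 genes in somata was -0.32, against -0.01 over all tested genes. With PTX, 4 of the 6 genes were below control without overlap, as were 25% of all genes, and Homer1 was above it, as were 24%. Homer1 lost its call when any 1 of the 4 somata libraries was left out, with log2 fold changes between 0.41 and 0.60 and adjusted p-values between 0.0994 and 0.341. Shank1 and Shank2 passed in somata when either processes control library was left out of the common fit (adjusted p between 0.0132 and 0.0336).

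Some marker genes of the cell types in these cultures moved with PTX too. The summed level of the 6 neuronal markers was 1578 to 1749 CPM in somata PTX and 3950 to 4614 CPM in processes PTX, below the control libraries in both compartments. Map2 made up most of the sum in processes, with means of 4609 CPM in control and 3652 CPM with PTX. Of the 6, Rbfox3 fell in somata (-0.67, adjusted p = 0.0221) and the glutamate transporter gene Slc17a7 rose in processes (0.73, adjusted p = 0.0172). None of the 6 was called lower in processes without the replicate block. With the block 4 of the 6 were lower in each compartment, as were 6.79% of all genes in somata and 6.09% in processes. The 3 inhibitory neuron markers summed to 203 to 278 CPM in somata control and 367 to 470 CPM in somata PTX, and to 124 to 156 CPM and 203 to 266 CPM in processes. Gad1 and Gad2 carried this, whereas Slc32a1 had -0.02 in somata (adjusted p = 0.976) and 0.16 in processes (adjusted p = 0.779). The astrocyte markers summed to 2335 to 3281 CPM in somata PTX, which overlapped control, and to 9132 to 10271 CPM in processes PTX, below control. Gfap made up most of the sum in processes, with means of 10247 CPM in control and 8248 CPM with PTX. Slc1a3 went the other way there, from 602 and 643 to 844 and 805 CPM, while Gja1 went from 160 and 158 to 113 and 122 CPM. In somata 1 of the 5, Gja1, fell (-0.61, adjusted p = 0.0215), where 1.5% of all genes fell. In processes 0 of the 5 passed the quasi-likelihood test (smallest adjusted p = 0.0907). The 5 oligodendrocyte lineage markers summed to 165 to 275 CPM in somata control and 145 to 234 CPM in somata PTX. In processes their sums were 222 to 307 CPM in control and 243 to 307 CPM with PTX. Of these 5 markers, 0 passed in either compartment, and 1 was lower in each with the replicate block. The part of these cell types in the values of the 6 genes was not tested.

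**Figure D2:**
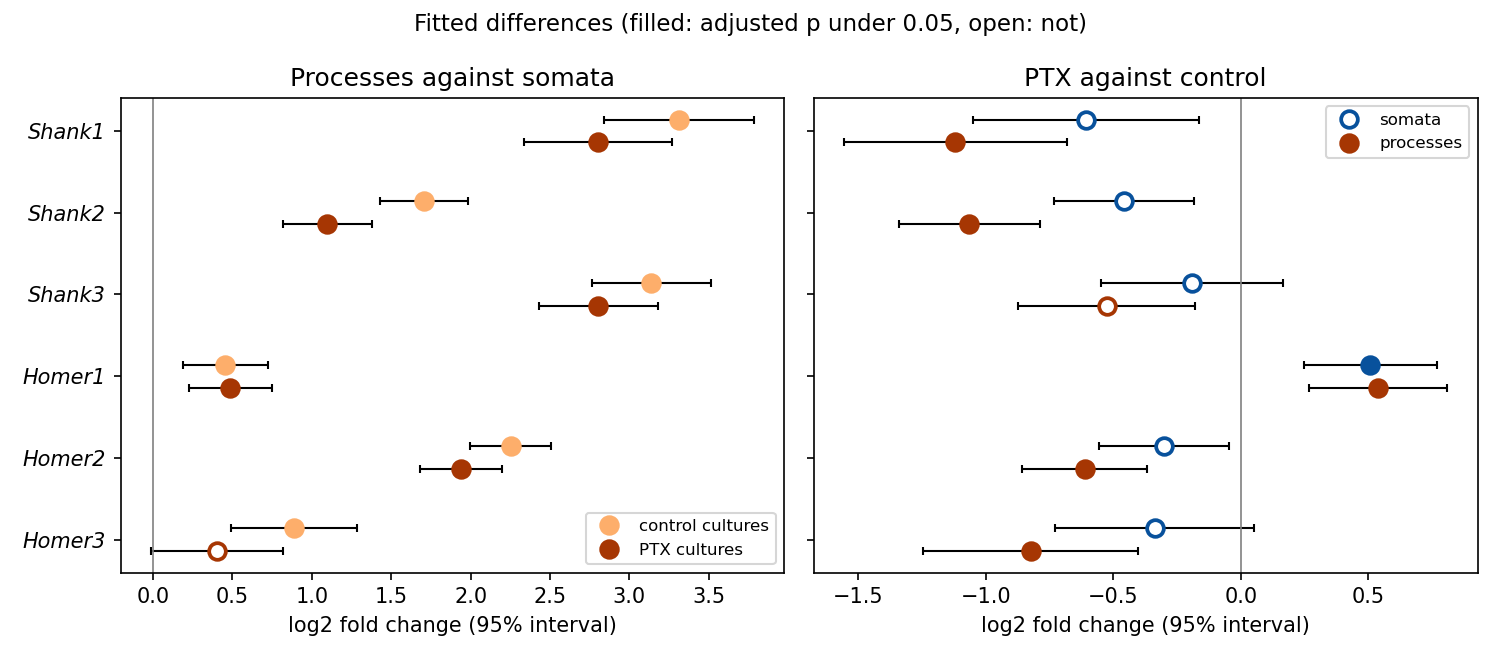
Fitted log2 fold changes (horizontal axes) with their 95% intervals for processes against somata (left) and PTX against control (right). Filled symbols passed an adjusted p of 0.05. Every gene lies right of 0 on the left after TMM scaling, although Shank2, Homer1 and Homer3 turn with library size alone, and Homer1 alone lies right of 0 on the right, at 0.51 in somata and 0.54 in processes.

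Ordered by level after TMM scaling, Shank1, Shank2, Shank3 and Homer2 shared 1 sequence of conditions, from processes control through processes PTX and somata control to somata PTX, with no overlap between neighbours. The share of all tested genes with this sequence was not computed, so it is not shown to be particular to these genes. Of its steps, PTX below control without overlap was found for 25% of all genes in somata and 22.3% in processes. For Homer3 only processes control stood apart, since the somata control libraries (12.1 and 17.3 CPM) overlapped both those of processes PTX and those of somata PTX. Homer1 was highest in processes PTX and lowest in somata control, and its libraries of somata PTX (48.9 and 52.4 CPM) and processes control (51.1 and 46.5 CPM) overlapped. In PTX cultures 5 of the 6 genes were still called higher in processes, as were 25.7% of all genes, with log2 fold changes of 2.80 for Shank1, 2.80 for Shank3, 1.94 for Homer2, 1.10 for Shank2 and 0.49 for Homer1. Homer1 lost that call without replicate 1 of somata PTX (0.44, adjusted p = 0.0503). Homer3 did not pass there (0.40, adjusted p = 0.1), and passed with the replicate block, as did 30% of all genes on the process side. The process libraries lay above the somata libraries for all 6 genes, as for 36.2% of all genes. These directions hold after TMM scaling: with library size alone Shank2 (-0.73), Homer1 (-1.35) and Homer3 (-1.42) were below 0 in PTX cultures, and Homer2 (0.11) did not pass.

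Whether PTX acted differently on the 2 compartments was tested by the interaction, in which the somatic PTX effect is subtracted from that in processes. Its log2 estimate was -0.61 for Shank2 (95% interval -0.997 to -0.22), -0.51 for Shank1 (-1.13 to 0.11), -0.49 for Homer3 (-1.06 to 0.09), -0.33 for Shank3 (-0.83 to 0.16), -0.31 for Homer2 (-0.67 to 0.04) and 0.031 for Homer1 (-0.34 to 0.41). By the quasi-likelihood test 0 of the 6 genes and 0% of all tested genes passed after adjustment, and the adjusted p of each of the 6 was 1. Shank2 alone of the 6 had an unadjusted p under 0.05, as had 572 of the 14309 tested genes. The likelihood ratio test and DESeq2 also called 0 of the 6, as did the replicate block, in which 0.105% of all genes passed and Shank2 had the smallest adjusted p of the 6, 0.143 (edgeR). A response confined to processes was thus not shown for any of the 6 genes. The comparisons share libraries: processes control enters the PTX effect in processes and the compartment difference of control cultures alike. Without replicate 1 of that group the interaction of Shank1 was -0.076 and that of Shank3 -0.031.

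Paralogs were then compared within each library, where scaling cancels out. The log2 ratio of Shank1 to Shank3 reads was 0.33 and 0.34 in somata control against -0.10 and -0.07 in somata PTX. In processes it was 0.59 and 0.38 in control against -0.11 and -0.06 with PTX. In both compartments the PTX libraries lay below the control libraries, with fewer Shank1 reads per Shank3 read. The ratio of Shank1 to Shank2 was lower with PTX in somata (0.47 and 0.39 against 0.28 and 0.28). In processes it overlapped, with 2.21 and 1.79 in control against 2.02 and 1.95 with PTX. The ratio of Shank3 to Shank2 was higher with PTX in both compartments without overlap. How often ratios of other gene pairs do not overlap was not computed. With 2 libraries a group an exact permutation test cannot go below p = 0.333, and no test was made of these ratios.

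As shares of all Shank reads, which favour long transcripts, Shank1 made up 39.7 and 39.2% in somata control, 34.6 and 34.8% in somata PTX, 53.2 and 48.5% in processes control and 43 and 43.4% in processes PTX. The share of Shank3 was 31.6 and 31% in somata control and 37 and 36.5% in somata PTX, and in processes 35.3 and 37.4% in control and 46.3 and 45.3% with PTX. Shank2 held 28.5 to 29.9% of the reads in the somata libraries of both treatments. In processes its share was 11.5 and 14.1% in control and 10.6 and 11.2% with PTX, below that in somata in every library. Exact (Clopper-Pearson) 95% intervals, which cover counting error only, reached from 47.3 to 49.7% for the 48.5% of Shank1 and from 52.3 to 54.1% for the 53.2%, so that the 2 processes control libraries differed from each other by more than counting error.

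Within the Homer family, Homer1 held a larger share with PTX in both compartments without overlap. Its share of Homer reads was 57.9 and 50.9% in somata control and 68.2 and 67.5% in somata PTX. In processes it was 33.6 and 32.1% in control, where Homer2 held 47.5 and 50.2%, and 53.7 and 52.3% with PTX, where Homer2 held 36 and 34.9%. Homer2 thus had the most Homer reads in processes of control cultures, and Homer1 in the other 3 conditions. Since reads were not divided by transcript length, this does not rank the levels of the paralogs. The log2 ratio of Homer1 to Homer2 reads went from 1.29 and 1.16 to 2 and 2.08 with PTX in somata, and from -0.50 and -0.64 to 0.58 and 0.58 in processes. The ratio of Homer1 to Homer3 was also higher with PTX without overlap, with 1.64 and 0.95 against 2.21 and 2.04 in somata and 0.83 and 0.85 against 2.38 and 2.02 in processes. Counts were summed by gene symbol, so the long and short forms of Homer1 were not told apart.

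**Figure D3:**
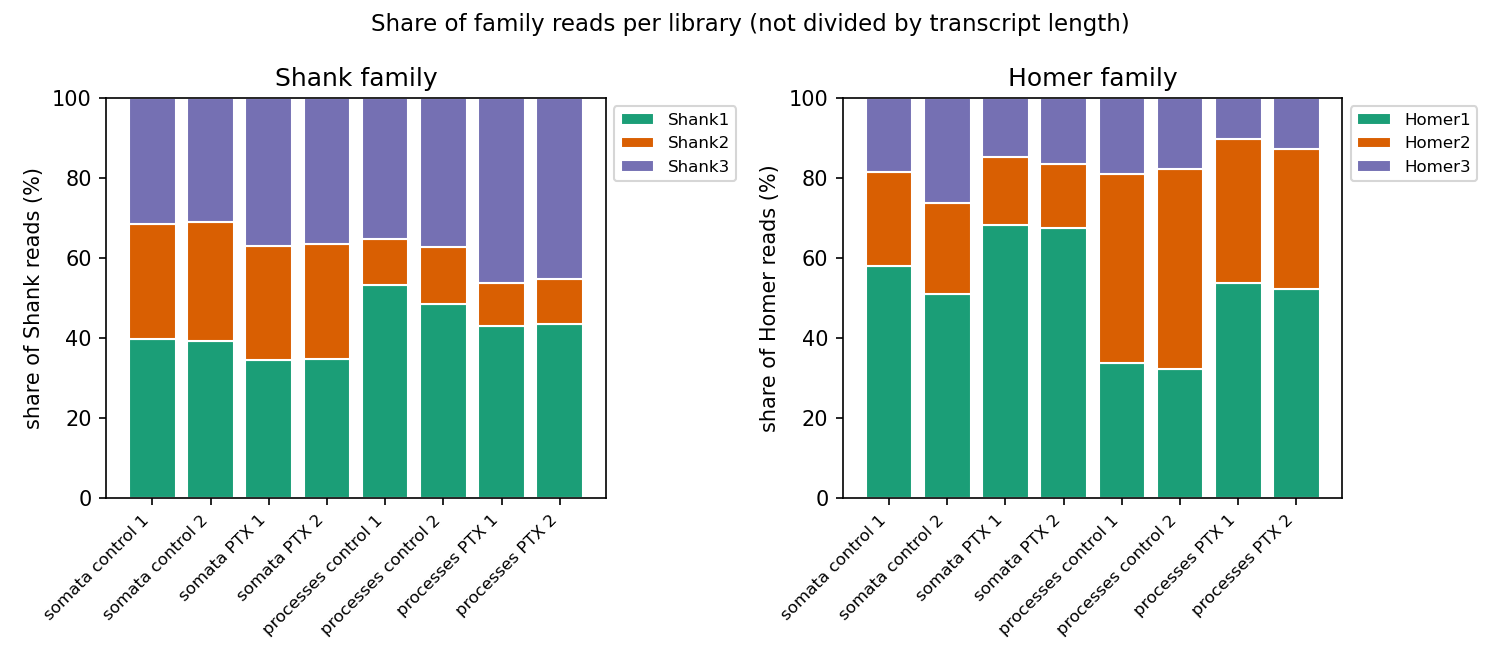
Share of each paralog (vertical axes, percent) in the reads of the Shank family (left) and the Homer family (right), for the 8 libraries. Reads were not divided by transcript length, so heights are comparable between libraries and not between paralogs. The Homer1 segment is 33.6 and 32.1% in processes control and 53.7 and 52.3% in processes PTX.

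Genes for proteins known to bind Homer or Shank were examined next, in lists of 9 and 16 genes that were all tested. Of the 9 Homer partners, 2 fell with PTX in somata and 1 in processes, and none rose, where 1.5% and 2.1% of all genes fell and 2.09% and 1.64% rose. With the replicate block 4 fell in somata and 3 in processes, where 6.79% and 6.09% of all genes fell. Ryr2, a calcium release channel of the endoplasmic reticulum, fell in somata (-0.88 on the log2 scale) as well as in processes (-0.77), with adjusted p = 0.00234 and 0.00779. Its level was 170 CPM in both somata control libraries and 93.1 and 91.5 CPM in somata PTX, and 69.1 and 68 CPM in processes control and 44.7 and 36 CPM in processes PTX. Grm5, a metabotropic glutamate receptor, fell in somata (-0.71, adjusted p = 0.042) and had -0.56 in processes (adjusted p = 0.106, or 0.000577 with the replicate block). The other 7 passed in neither compartment without the block. With it, the dynamin gene Dnm3 (-0.60, adjusted p = 0.000305) and Dbn1, which encodes the actin-binding drebrin of spines (-0.30, adjusted p = 0.0338), fell in somata, and the IP3 receptor gene Itpr1 fell in processes (-0.43, adjusted p = 0.00682).

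Of the 16 Shank partners, 1 fell with PTX in somata and 2 in processes, where 1.5% and 2.1% of all genes fell, and none rose. With the block 5 fell and 3 rose in somata, where 6.79% of all genes fell and 7.21% rose. In processes 5 fell with the block, as did 6.09% of all genes, and none rose. Baiap2, which encodes the insulin receptor substrate IRSp53 that links Shank to actin regulators, fell in both, with -0.52 in somata and -1.06 in processes on the log2 scale (adjusted p = 0.0493 and 0.00537). Its processes PTX libraries measured 9.53 and 9.55 CPM against 20.4 and 19.5 CPM in control. Lrrc7, which encodes the postsynaptic protein densin-180, fell in processes (-0.65, adjusted p = 0.0476) and had -0.42 in somata (adjusted p = 0.185, or 0.00676 with the block). The SAPAP genes, which encode the link between Shank and PSD-95, passed in neither compartment without the block, and Dlgap1 had the lowest of their values in processes (-0.49, adjusted p = 0.105, or 0.000803 with the block). With the block, which called 7.21% of all genes higher in somata, Dlgap2 and Dlgap3 rose there (0.52 and 0.55, adjusted p = 0.000437 and 0.00224, against 0.0525 and 0.0819 without it), while their values in processes were 0.041 and 0.12. The others called with the block were the somatostatin receptor gene Sstr2, which rose in somata (adjusted p = 0.0194), the L-type calcium channel gene Cacna1d, which fell in somata (0.0104), and Sptan1 (0.0322 and 0.0211) and Abi1 (0.0364 and 0.035), which fell in somata and processes. The median log2 fold change of the Homer partners was -0.21 in somata and -0.34 in processes, and that of the Shank partners -0.04 and -0.16.

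**Figure D4:**
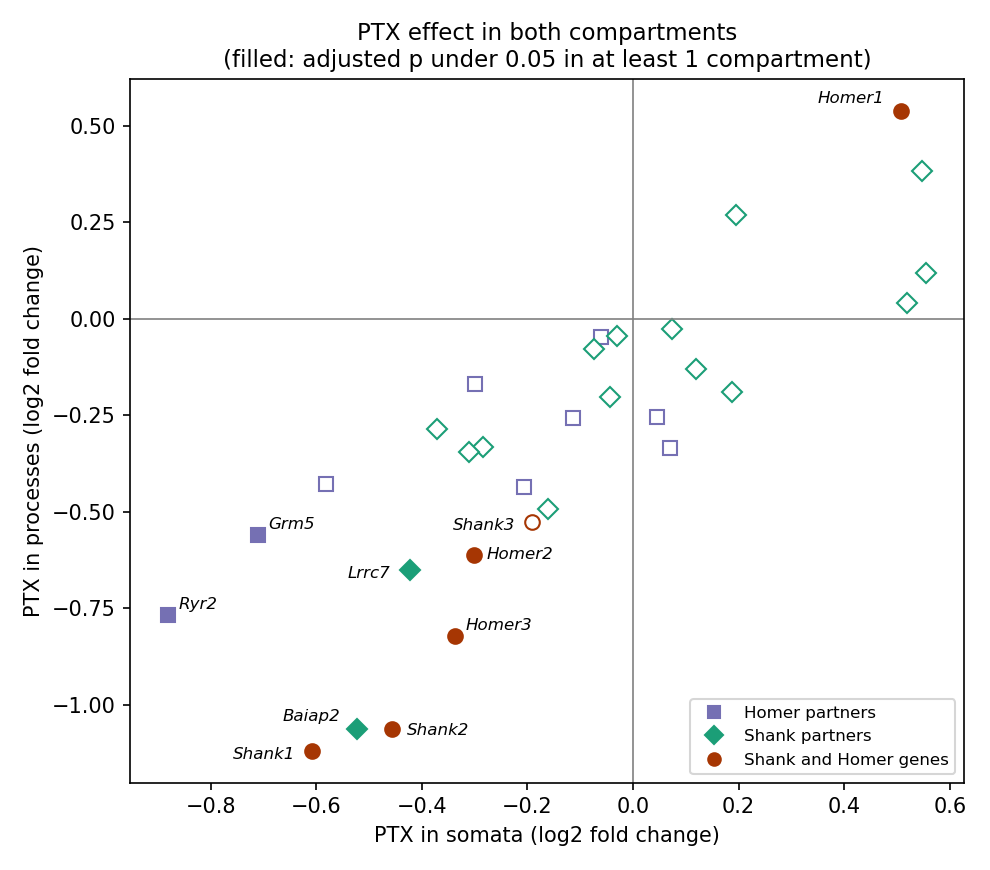
PTX log2 fold changes in somata (horizontal axis) and processes (vertical axis) of the 6 Shank and Homer genes (circles), 9 Homer partners (squares) and 16 Shank partners (diamonds). Filled symbols passed an adjusted p of 0.05 in at least 1 compartment. Filled partner symbols all lie below 0 in both compartments, and Homer1 is the 1 filled symbol above 0.

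After TMM scaling the partners lay to both sides in the comparison of compartments. In processes against somata of control cultures, 9 of the 16 Shank partners were higher and 3 lower, and 2 of the 9 Homer partners were higher and 3 lower (adjusted p under 0.05), with medians of 0.40 and 0.032. Over all tested genes 25.8% were higher and 21.9% lower. Dlgap3, whose mRNA is known to be dendritic, had the highest log2 fold change of the Shank partners with 2.22 (adjusted p = 2.05e-06), followed by Dlgap4 with 0.88. The lowest were Cacna1d with -0.95 and Sorbs2 with -0.49. Among Homer partners Agap2, which encodes the GTPase PIKE, was highest with 2.10 (adjusted p = 1.21e-05), followed by Grm5 with 0.83, and Ryr2 and Dnm3 were lowest with -1.31 and -0.98.

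Finally, for each of the 6 genes the 3 genes outside the 6 with the most similar pattern were sought, by the root mean square difference of log2 CPM over the 8 libraries after each gene was centred on its own mean. For Shank3 the nearest was Neurl1, at 0.088, and for Shank1, whose distance to Shank3 was 0.258, it was RGD1309036 at 0.259, followed by Neurl1 at 0.315. Prr12 was nearest to Shank2 (0.1), Zc3h7b to Homer2 (0.083), Auts2 to Homer3 (0.096) and Unc13a, a presynaptic vesicle priming factor, to Homer1 (0.083). Among the 6 genes themselves Shank1 and Shank3 were the closest pair, and the next were Shank2 and Homer2 at 0.399 and Shank2 and Homer3 at 0.408. Homer1 lay nearest to Homer3, at 0.602. These distances are descriptions of 8 libraries and were not tested.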

How the data were processed

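Per the study's methods, the authors trimmed reads of a strand-marking library kit with Trimmomatic, mapped them to the rat genome Rnor 6.0 with Subread, counted them with featureCounts on Ensembl genes and summed the counts by symbol; the submitters' processing notes name STAR in place of Subread. The deposited counts are whole numbers without normalization. Whether strand was used in counting is not given in the sources used here. In the RefSeq table of GRCr8, Ddx49 overlaps Homer3 and Acr overlaps Shank3 (0 to 5 reads per library), so reads of Homer3 are of uncertain origin in part. Ddx49 changed by -0.47 with PTX in processes (log2, adjusted p = 0.112, quasi-likelihood test). Also overlapping are C1h19orf81 with Shank1, LOC120099964 with Shank2, LOC108351527 with Shank3 and Rnu6-946 with Homer2. These symbols are absent from the count table, so whether their reads were counted for the members could not be checked. The authors' own comparison tables (log2 fold changes, log2 CPM, likelihood ratios, p-values, FDR) were not used.

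A gene was tested where 2 or more libraries held over 20 of its reads. TMM factors, glmQLFit and glmQLFTest of edgeR 4.0.16 (R 4.3.3) gave each contrast from 1 fit of all 8 libraries with 1 coefficient per condition, and p-values were adjusted over all tested genes by the Benjamini-Hochberg method with a threshold of 0.05. Each standard error was derived from the estimate and its F statistic. log2 CPM used a prior count of 2. The fit was tested on simulated data. The 6 genes and all lists were chosen with earlier results of these data known. Named are the 6 genes, partners called with PTX or among the 2 highest and 2 lowest by compartment, and the nearest genes by pattern (mean of at least 5 CPM); partners called only with the replicate block, and markers, were named after their values were seen. Of the Homer partners listed at first, 1 is not reported here and was left out of the list's counts and medians.

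Replicate numbers pair the libraries: differences between replicates 2 and 1 correlated across genes with r between 0.274 and 0.54 over every pair of conditions; what the numbers mark is not stated. Also run were DESeq2 1.42.0, the likelihood ratio test, other scalings, filters and thresholds, the 4 libraries compared alone, the replicate block and leaving out each library. Levels per coding length were not computed, since no transcript or protein lengths were used here.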

Additional observations from a re-analysis of the deposited data

How the results depend on the processing

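The number of the 6 genes called for PTX in somata, 1, was 2 with the likelihood ratio test, DESeq2 or an adjusted p of 0.1, and 3 with no filter, the replicate block or only the 4 libraries compared, was 0 at an adjusted p of 0.01, and ranged from 0 to 3 with single libraries left out. For PTX in processes, 5 became 1 at an adjusted p of 0.01 and 3 with only the 4 libraries compared (Homer1 and Homer2 were lost), and ranged from 1 to 4 with single libraries left out. Shank3 passed in processes with the likelihood ratio test (adjusted p = 0.0422), DESeq2 (0.0377) and no filter (0.004). The counts for the other comparisons stayed within 1.5 times. All these counts took calls in either direction, so a gene whose sign turned, as given next, could still count as kept. They therefore do not show that the directions were kept.

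Signs turned with library size only, for processes against somata: Shank2 (-0.11), Homer1 (-1.36) and Homer3 (-0.93) in control cultures and Shank2 (-0.73), Homer1 (-1.35) and Homer3 (-1.42) in PTX cultures, where the median of all genes was -1.87. The interaction of Homer1 ranged from -0.076 (without processes PTX replicate 1) to 0.13 with single libraries left out. For Homer2 the value in PTX cultures was 0.11 at that scaling and no longer passed. Beyond these, no member's log2 fold change changed sign.

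Over all genes, 513 (somata) and 535 (processes) were called for PTX, against 2002 and 1601 with the replicate block, 972 and 949 with the likelihood ratio test, and 1141 and 1129 with no filter; leaving out 1 library gave 117 to 568 and 97 to 478. The interaction called 0, and 15 with the block. The block, which follows the pairing by replicate number, changed no call of the 6 genes other than the 4 named for it above. Of the 18 nearest genes, 9 were kept with a mean of at least 20 CPM. Paralog shares per coding length were not run. With 2 libraries a group, and fewer non-mitochondrial counts in processes (4702054 to 5491237) than in somata (9517542 to 11227599), a missed threshold does not show that a gene did not change; for Shank3 in somata the 95% interval was -0.55 to 0.16.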
